A study of Mus musculus with 5 samples.

Results

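This account covers genes of motile cilia and of the ciliary axoneme, the microtubule core of a cilium, in 4 regions of the adult mouse brain. Genes were taken by name from the coding part of the expression table: the axonemal dynein, dynein assembly factor, radial spoke, tektin, intraflagellar transport (Ift), Bardet-Biedl (Bbs) and sperm-associated antigen (Spag) families, with Foxj1, Ccdc153, Tmem212, Dynlrb2, Ak7, Fam183b, Lrrc23, Hydin and Cdhr4. The choice was applied by name, without a cut on any measured value, but it was made with earlier results of these data known. It gave 64 genes with 82 transcripts, of 20340 coding genes in the table. By textbook role, 37 were placed with motile axonemes or cells with motile cilia and 20 with the transport machinery of cilia of every kind. The 7 other Spag genes were kept apart from both groups. Of the 64, 58 reached 1 FPKM in at least 1 library: 33 of the 37 motile genes, all 20 transport genes and 5 of the 7 other Spag genes. FPKM (fragments per kilobase and per library total) is a length-corrected unit. Length is not the only property that can shape a level, so comparisons between genes are rough. Dnahc8, Dnahc17, Rsph6a, Tekt3, Spag11a and Spag11b stayed under 1 FPKM in all 5 libraries.

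The RNA was polyadenylated RNA of microdissected, snap-frozen brain regions. All mice were adult C57BL/6 males of wild-type genotype, with no treatment named. The subventricular zone (SVZ), the neurogenic layer under the wall of the lateral ventricle, had 2 biological replicates. The olfactory bulb (OB), the dentate gyrus (DG) and the striatum (STR), which the design names as its non-neurogenic control, had 1 sample each. The number of animals pooled per sample is not stated in the labels. The striatal, bulb and granule neuron markers were highest in the tissue of that name for the median of each list, and striatal markers lay at a similar level in both SVZ samples (median 293 and 308 FPKM, against 433 in STR). Each library had 12253 to 13111 coding genes at or above 1 FPKM. The DG library had 5731 coding genes listed at 0, against 3170 to 3999 in the others, and an exact 0 in such a table can be a failed estimate. The libraries also fall into sets that cut across region: the Gapdh level was 457 FPKM for SVZ sample 1, 563 for OB and 414 for DG, but 32.4 for SVZ sample 2 and 39.5 for STR. Comparisons within a set are therefore given beside the pooled ones. These are bulk tissues, so fewer cells of a type and less RNA per cell cannot be told apart.

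A motile cilium beats by means of dynein arms that are docked in rows on the outer microtubule doublets and slide them past each other, under the control of radial spokes and a central pair apparatus. In the brain such cilia stand in tufts on ependymal cells, which line the ventricles next to the SVZ. Choroid plexus cells carry tufts of cilia too, and whether those beat was not examined here. Most other brain cells, neurons among them, carry a solitary immotile primary cilium that has no dynein arms, spokes or central pair, but is built by the same transport system: IFT-B trains carry cargo to the tip, IFT-A trains carry it back, and the BBSome, a coat-like complex of Bbs proteins, sorts membrane proteins.

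Ciliary genes of either kind are known targets of RFX transcription factors, which bind the X-box, an inverted repeat, while FOXJ1 is a forkhead factor that directs the motile program. Start sites were available for 54 of the 64 genes, as RefSeq windows of 300 bases (250 before to 50 after the start) on the mouse build GRCm38.p6. An X-box was searched on both strands as GTTNCC, a gap of 1 to 3 bases, then GNNAAC. It was found in the window of 2 of 32 motile and 2 of 17 transport genes with a window, against 1.44% of all 27025 genes with one. The matches are shown because the 4 genes fall on either side of the contrast between motile and transport genes and carry nearly the same letters. Each line holds the match in capitals with 20 bases on either side in lower case, 5′ to 3′ on the strand of the gene.
Ccdc153, chr9:44240505-44240558, plus strand: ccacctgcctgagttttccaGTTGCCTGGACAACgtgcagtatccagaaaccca
Fam183b, chr11:58801944-58801996, minus strand: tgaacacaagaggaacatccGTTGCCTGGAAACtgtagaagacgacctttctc
Bbs7, chr3:36613477-36613530, minus strand: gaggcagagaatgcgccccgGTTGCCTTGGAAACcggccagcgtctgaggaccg
Ift57, chr16:49699214-49699266, plus strand: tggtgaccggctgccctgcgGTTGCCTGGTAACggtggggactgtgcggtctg
The matches begin 152, 16, 121 and 60 bases before the start site. The left arm alone, GTTGCC on either strand, which every X-box shown above contains, was present in 14 of 32 motile windows (43.8%) and 8 of 17 transport windows (47.1%), against 14.1% of all genes. The forkhead letters TGTTTAC, on either strand, were found in 3 of 32 motile windows (Ak7, Dnahc17 and Tekt3) and 0 of 17 transport windows, against 4.05% of all genes. A match is a run of letters and not a measured binding site, and its absence from these windows says nothing of a factor.

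Most motile genes were highest in the SVZ. The median level of the 37 was 7.98 and 4.95 FPKM in SVZ samples 1 and 2, 1.202 in OB, 0.812 in DG and 0.242 in STR, and their summed level was 565, 274, 101, 95.2 and 34.2 FPKM in the same order. Transport genes differed far less between libraries, with medians of 15.9, 12.4, 13.8, 9.89 and 9.48 FPKM and sums of 371, 266, 344, 275 and 229 FPKM. Of the 37 motile genes, 31 had their highest value in SVZ sample 1, 2 in SVZ sample 2, 3 in OB and 1 in DG. Over all 14024 coding genes at 1 FPKM in any library, 21.2% were highest in SVZ sample 1, 10.3% in SVZ sample 2, 41.4% in OB, 16.8% in DG and 10.2% in STR. Among the 20 transport genes, 12 were highest in SVZ sample 1, 1 in SVZ sample 2, 5 in OB, 1 in DG and 1 in STR. Both SVZ samples lay above OB, DG and STR for 26 of the 37 motile genes and 4 of the 20 transport genes, against 10.6% of those coding genes.

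**Figure D1:**
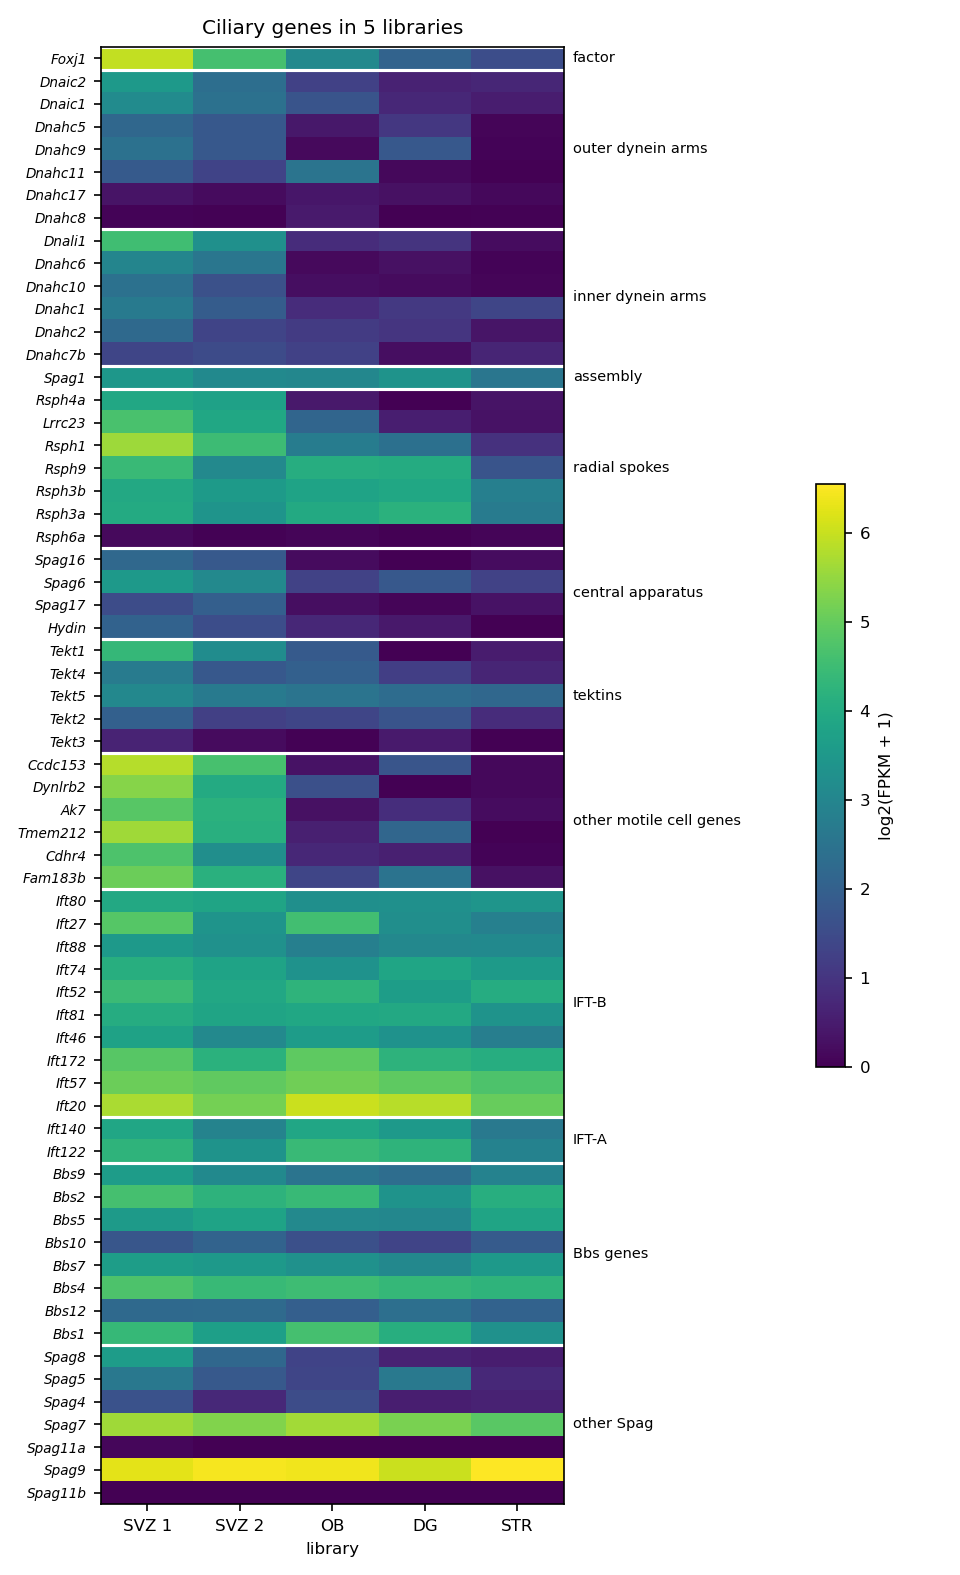
Level of all 64 genes (rows, by role class) in the 5 libraries (columns), as log2(FPKM + 1) on the colour scale. The rows of motile classes are bright in the SVZ columns and dark in STR, with medians of 7.98 and 4.95 against 0.242 FPKM, while the IFT and Bbs rows keep a similar colour across the 5 columns.

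Differences between regions were taken on log2(FPKM + 1), where 1 unit is a 2-fold change for well expressed genes and the change of low genes is understated. They are given with limma's standard error (SE), which rests on the spread of the 2 SVZ samples and assumes that the single OB, DG and STR samples vary alike. The 2 SVZ samples are in different library sets. Their spread therefore holds the difference between sets as well as that between replicates, and these cannot be told apart. Between the SVZ and the striatum, 26 of 37 motile genes were higher in the SVZ by 1 unit or more and 0 were lower, with a median difference of 1.93. The background was 7.13% of coding genes higher and 1.15% lower by this measure, with a median of 0.24. Of the transport genes 1 of 20 was higher by 1 unit, Ift27, and 0 were lower, with a median of 0.40. Set against the all-gene median, the motile median was 1.70 and the transport median 0.16.

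Against the olfactory bulb, 23 of 37 motile genes were higher in the SVZ by 1 unit or more and 0 lower (median 1.58), beside 0 of 20 transport genes in either direction (median 0.02). Here 7.22% of all coding genes were higher and 14.9% lower, with a median of -0.24. Against the dentate gyrus the counts were 24 of 37 motile genes (median 1.51) and 2 of 20 transport genes, Bbs2 and Bbs9 (median 0.23), with 0 lower in either group, while 10.7% of all coding genes were higher and 8.07% lower, with a median of 0.01. Relative to all coding genes the motile medians were 1.82 against OB and 1.49 against DG, and the transport medians 0.26 and 0.22. The comparisons share the SVZ samples and are not independent of each other. The library totals weigh on the background: after median ratio scaling, the share of higher genes among all genes past 1 unit went from 86.1% to 68.2% against STR and from 32.6% to 51.4% against OB, and stayed at 57.0% and 57.1% against DG. The motile counts under that scaling were still 26, 23 and 24.

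By limma with Benjamini-Hochberg adjustment over all coding genes tested, 17 motile genes passed an adjusted p of 0.05 against STR, 13 against OB and 17 against DG, all higher in the SVZ, and 0 transport genes passed in any of the 3 comparisons. The same test called 1.4%, 1.78% and 2.7% of all coding genes higher. All 37 motile genes are counted here, and the 4 that stayed under 1 FPKM were not tested. These calls depend on which genes enter the fit. With only 1 residual degree of freedom the test leans on the variance it learns from all genes, and when genes under 1 FPKM were included 0 motile genes passed in each comparison, with smallest adjusted p-values of 0.764, 0.112 and 0.178. In that wider fit 23, 16 and 19 motile genes, and 0 transport genes in each comparison, had an unadjusted limma p under 0.05. The share of all coding genes under that p was not taken for the wider fit. These counts therefore have no background and do not replace the lost calls.

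**Figure D2:**
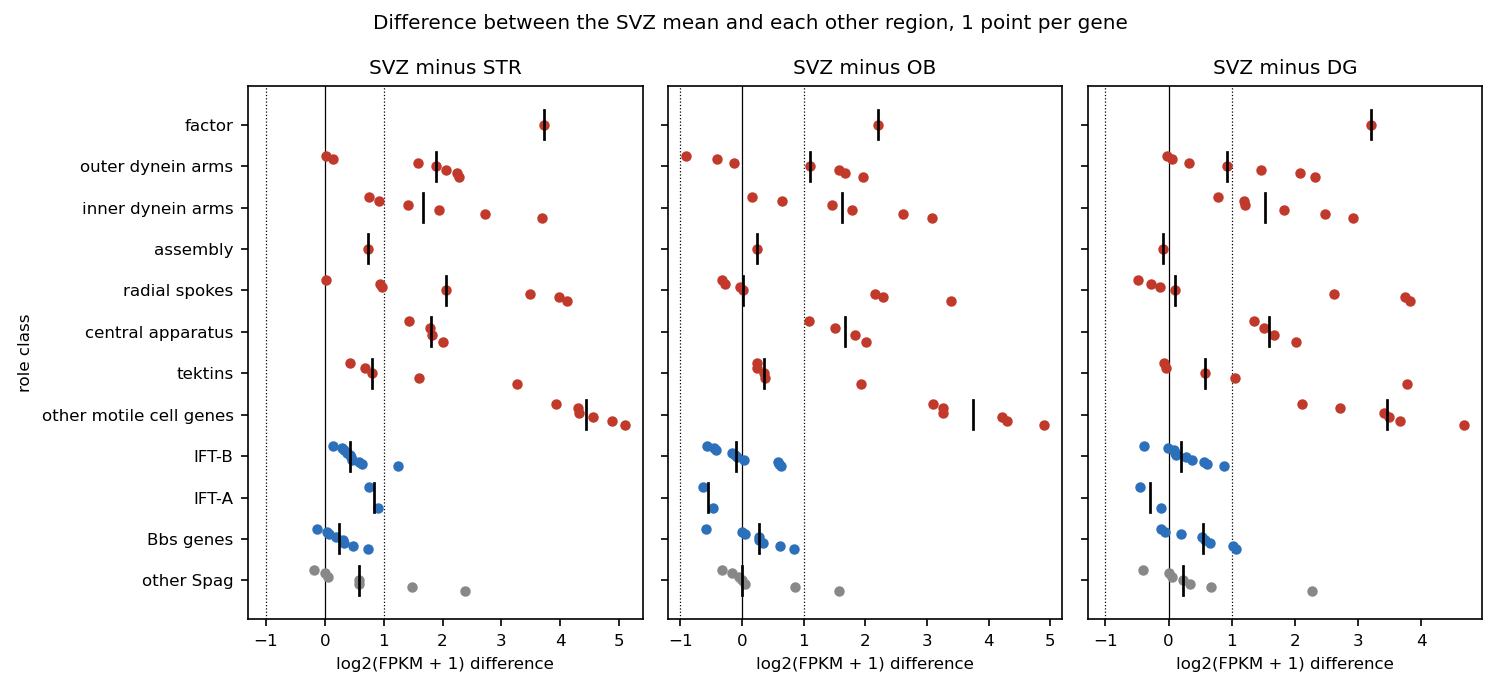
Difference between the mean of the SVZ samples and STR, OB or DG (panels) on the log2(FPKM + 1) scale, with 1 point per gene, rows by role class and a black bar at the class median; dotted lines mark 1 unit either way. Motile classes (red) spread to the right, up to 5.10 against STR, and transport classes (blue) stay close to 0, from -0.64 to 1.25 over the 3 panels.

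Within library sets the split between motile and transport genes was similar. SVZ sample 2 exceeded STR by 1 unit or more for 25 of 37 motile genes (median 1.65) and 0 of 20 transport genes, beside 4.04% of all coding genes. SVZ sample 1 exceeded OB for 24 motile genes (median 1.86) and 1 transport gene, Bbs9, beside 7.67% of coding genes, and exceeded DG for 26 motile genes (median 1.73) and 3 transport genes, beside 12.7%. SVZ sample 2 against STR and SVZ sample 1 against OB have no library in common. In both of these, 22 of 37 motile genes, 0 of 20 transport genes and 2 of 7 other Spag genes were higher by 1 unit or more, against 2.51% of all coding genes.

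**Figure D3:**
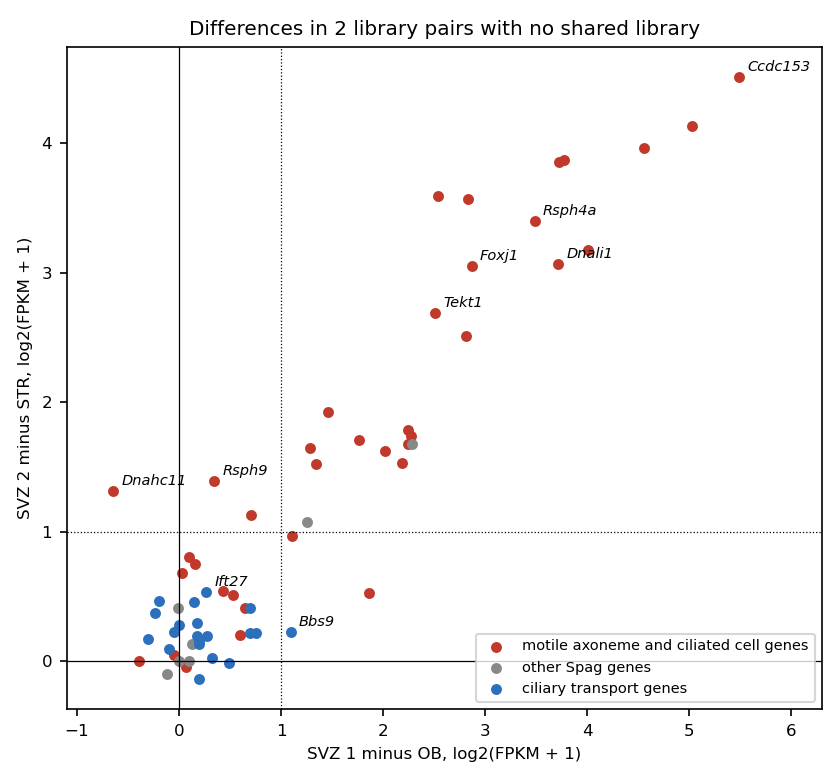
Difference of SVZ sample 1 from OB (horizontal) and of SVZ sample 2 from STR (vertical) on the log2(FPKM + 1) scale, with 1 point per gene and dotted lines at 1 unit. Of the motile genes (red) 22 lie past 1 unit on both axes, up to Ccdc153 at 5.49 and 4.51, and 0 transport genes (blue) do; Dnahc11 lies left of 0 at -0.64.

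Foxj1, at chromosome 11, 116192018 to 116196668 on mm9, encodes the forkhead factor that switches on the genes of motile cilia. It was at 61.0 and 23.5 FPKM in SVZ samples 1 and 2, 7.49 in OB, 3.24 in DG and 1.95 in STR. Both SVZ samples lay above every other library, and the lower of them was 3.14 times the OB value. The difference was 3.72 ± 0.58 from STR (limma adjusted p = 0.0005), 2.20 ± 0.65 from OB (adjusted p = 0.114) and 3.20 ± 0.63 from DG (adjusted p = 0.0233), so the OB difference did not pass.

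Next to Foxj1 and the spoke gene Rsph1, the highest levels among motile genes in SVZ sample 1 belonged to a small group of genes that mark ciliated cells and whose products sit in or near the axoneme or have little known function. Ccdc153, a coiled-coil protein gene at chromosome 9, 44048760 to 44055389 on mm9, was at 55.0 and 23.9 FPKM in SVZ samples 1 and 2, 0.249 in OB, 2.31 in DG and 0.0927 in STR. Tmem212, which encodes a membrane protein, was at 47.9 and 16.6 FPKM in SVZ samples 1 and 2, 0.499 in OB, 3.45 in DG and 0 in STR, that is, listed at 0 in STR. Dynlrb2, a roadblock-type dynein light chain gene, was at 40.0 and 15.1 FPKM in SVZ samples 1 and 2, 2.00 in OB, 0 in DG and 0.0962 in STR. These 3 genes separate the SVZ from every other library, and for Dynlrb2 the 0 stands in DG. Fam183b was at 33.0 and 16.7 FPKM in SVZ samples 1 and 2, 1.57 in OB, 4.65 in DG and 0.221 in STR. Ak7, an adenylate kinase of axonemes, was at 27.9 and 17.2 FPKM in SVZ samples 1 and 2, 0.232 in OB, 0.812 in DG and 0.160 in STR. Cdhr4, a cadherin-related gene, was at 25.5 and 8.45 FPKM in SVZ samples 1 and 2, 0.643 in OB, 0.486 in DG and 0.0447 in STR. All 6 genes of this group had both SVZ samples above the other libraries, and the lower SVZ sample exceeded the highest of the others 21.1-fold for Ak7, 13.1-fold for Cdhr4, 10.4-fold for Ccdc153, 7.53-fold for Dynlrb2, 4.80-fold for Tmem212 and 3.59-fold for Fam183b. Against STR, Ccdc153 differed by 5.10 ± 0.55 (limma adjusted p = 1.97e-05) and Ak7 by 4.30 ± 0.52 (adjusted p = 5.69e-05). Against OB the differences were 4.90 ± 0.60 and 4.22 ± 0.48, and against DG 3.50 ± 0.58 and 3.66 ± 0.49. In DG, where Ak7, Cdhr4 and Dynlrb2 were under 1 FPKM, Ccdc153, Tmem212 and Fam183b lay between 2.31 and 4.65 FPKM, above their OB values.

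Outer dynein arms carry most of the power of the beat. The intermediate chain gene Dnaic2 was at 10.4 and 4.16 FPKM in SVZ samples 1 and 2, 1.42 in OB, 0.538 in DG and 0.617 in STR, and its partner Dnaic1 was at 7.98 and 4.47 FPKM in SVZ samples 1 and 2, 2.27 in OB, 0.659 in DG and 0.443 in STR. The heavy chain gene Dnahc5, whose product is the motor of the arm, was at 3.52 and 2.48 FPKM in SVZ samples 1 and 2, 0.329 in OB, 1.08 in DG and 0.0662 in STR. For these 3 genes the groups did not overlap: both SVZ samples were the highest libraries. Dnaic1 differed by 2.28 ± 0.52 from STR (limma adjusted p = 0.0176), and Dnaic2 by 2.25 ± 0.54 (adjusted p = 0.0276). Dnahc5 differed by 1.89 ± 0.51 from STR (adjusted p = 0.0619), which did not pass, and by 1.58 ± 0.36 from OB (adjusted p = 0.0496), which did.

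The heavy chains of the outer arm did not share a pattern over the regions. Dnahc9 was at 4.44 and 2.49 FPKM in SVZ samples 1 and 2, 0.123 in OB, 2.48 in DG and 0.0462 in STR, so its DG value was close to SVZ sample 2 while OB and STR were close to 0. Its difference was 2.06 ± 0.51 from STR, 1.96 ± 0.41 from OB and 0.32 ± 0.44 from DG, and the difference of DG from STR was 1.73 ± 0.43 (limma adjusted p = 0.0904). Dnahc11, the heavy chain gene mutated in the mouse inversus viscerum strain, was at 2.64 and 1.51 FPKM in SVZ samples 1 and 2, 4.69 in OB, 0.101 in DG and 0.0117 in STR. It was the highest in OB, above both SVZ samples. OB exceeded STR by 2.49 ± 0.40 (limma adjusted p = 0.016) and DG by 2.37 ± 0.36 (adjusted p = 0.017), and these were the only motile calls at adjusted p under 0.05 among the 3 comparisons without the SVZ. Both were lost when genes under 1 FPKM entered the fit. Its difference of the SVZ from OB was -0.91 ± 0.38 (adjusted p = 0.293). Dnahc8 and Dnahc17, outer arm heavy chains known from sperm, stayed at 0.385 and 0.322 FPKM or below in every library.

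Inner dynein arms shape the bend of the beat. Dnali1, a light intermediate chain gene, was at 22.3 and 8.73 FPKM in SVZ samples 1 and 2, 0.770 in OB, 0.987 in DG and 0.159 in STR. The heavy chain gene Dnahc6 was at 6.90 and 4.95 FPKM in SVZ samples 1 and 2, 0.125 in OB, 0.226 in DG and 0.0447 in STR, and Dnahc10 was at 4.39 and 2.08 FPKM in SVZ samples 1 and 2, 0.184 in OB, 0.147 in DG and 0.0680 in STR. For these 3 genes the lower SVZ sample was 8.84, 21.9 and 11.3 times the highest other library. Dnahc1 was at 5.45 and 2.71 FPKM in SVZ samples 1 and 2, 0.778 in OB, 1.11 in DG and 1.58 in STR. Dnahc2 was at 3.75 and 1.52 FPKM in SVZ samples 1 and 2, 1.202 in OB, 1.02 in DG and 0.293 in STR. Dnahc7b, which has close copies in the genome so that reads may be split between them, was at 1.57 and 1.80 FPKM in SVZ samples 1 and 2, 1.40 in OB, 0.174 in DG and 0.604 in STR. All 6 inner arm genes thus had both SVZ samples on top, but for Dnahc2 and Dnahc7b the margin over the next library, OB, was 1.27-fold and 1.12-fold. Dnali1 differed by 3.70 ± 0.55, 3.09 ± 0.58 and 2.92 ± 0.57 from STR, OB and DG, and Dnahc6 by 2.71 ± 0.51, 2.61 ± 0.37 and 2.48 ± 0.41. Both passed the limma test in each comparison, with adjusted p-values from 0.000338 to 0.0266 for Dnali1 and from 0.00304 to 0.0124 for Dnahc6.

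The single assembly factor among the members was Spag1, which helps to fold dynein arms in the cytoplasm before they enter the cilium. It was at 10.1 and 7.60 FPKM in SVZ samples 1 and 2, 7.24 in OB, 9.34 in DG and 4.90 in STR. The DG value lay between the SVZ samples, and the differences from STR, OB and DG were 0.73 ± 0.52, 0.25 ± 0.51 and -0.08 ± 0.51, none larger than 2 SE.

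**Figure D4:**
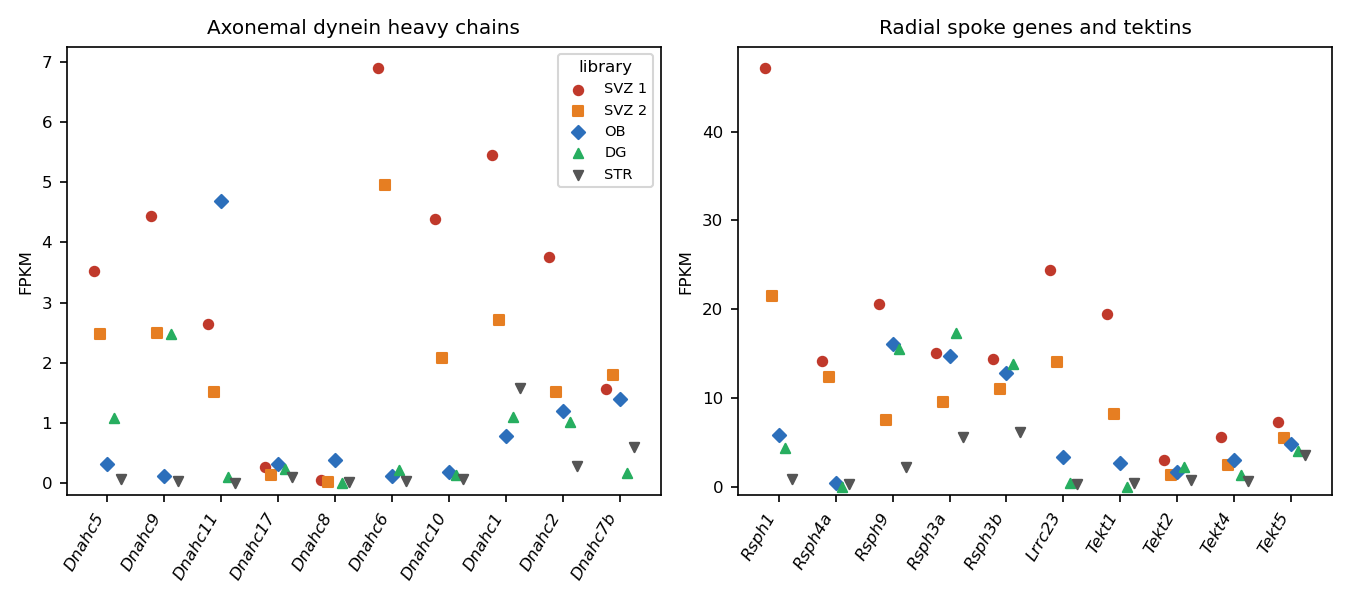
FPKM of the axonemal dynein heavy chain genes (left) and of radial spoke and tektin genes (right) in each of the 5 libraries, with 1 point per library. Dnahc11 is highest in OB (4.69), Dnahc9 in DG lies beside SVZ sample 2 (2.48 and 2.49), and Rsph9, Rsph3a and Rsph3b have OB and DG points among or above the SVZ points while Rsph1, Rsph4a, Lrrc23 and Tekt1 do not.

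Radial spokes link the doublets to the central pair, and their genes differed in their regional pattern. Rsph1, a spoke head gene, was at 47.2 and 21.5 FPKM in SVZ samples 1 and 2, 5.76 in OB, 4.32 in DG and 0.896 in STR. Rsph4a, another spoke head gene, was at 14.1 and 12.3 FPKM in SVZ samples 1 and 2, 0.352 in OB, 0 in DG and 0.264 in STR. Lrrc23, a leucine-rich repeat gene of the spoke, was at 24.4 and 14.0 FPKM in SVZ samples 1 and 2, 3.39 in OB, 0.456 in DG and 0.242 in STR. In these 3 genes the SVZ samples stood apart from all others. Rsph4a had the largest ratio of all 64 genes, with the lower SVZ sample 34.99 times the highest other library. That ratio divides by a low value, 0.352 FPKM in OB. On the log2(FPKM + 1) scale, the SVZ mean of Rsph4a lay 3.57 above the mean of the other regions, against 4.50 for Ccdc153. Rsph4a differed by 3.49 ± 0.51 from STR (limma adjusted p = 0.000274) and by 3.39 ± 0.40 from OB (adjusted p = 0.00606). It was listed at 0 in DG.

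Other spoke genes did not single out the SVZ when all 5 libraries were compared. Rsph9, a spoke head gene like Rsph1 and Rsph4a, was at 20.6 and 7.51 FPKM in SVZ samples 1 and 2, 16.05 in OB, 15.5 in DG and 2.24 in STR. Rsph3a and Rsph3b encode spoke stalk proteins from near-identical copies on chromosome 17, and how reads were divided between them is uncertain. Rsph3a was at 15.1 and 9.57 FPKM in SVZ samples 1 and 2, 14.7 in OB, 17.3 in DG and 5.61 in STR, and Rsph3b at 14.4 and 11.0 FPKM in SVZ samples 1 and 2, 12.8 in OB, 13.9 in DG and 6.12 in STR. In all 3 genes STR was the lowest library and OB and DG lay between or above the SVZ samples. OB and DG are in the library set of SVZ sample 1, and STR is in that of SVZ sample 2. Within sets, SVZ sample 2 exceeded STR by 1.39, 0.68 and 0.75 units for Rsph9, Rsph3a and Rsph3b. SVZ sample 1 differed from OB by 0.34, 0.03 and 0.16 in the same order, and from DG by 0.39, -0.19 and 0.05. Rsph9 differed by 2.07 ± 0.58 from STR, -0.33 ± 0.66 from OB and -0.28 ± 0.63 from DG, and OB exceeded STR by 2.39 ± 0.77 (limma adjusted p = 0.138). Rsph6a, a spoke gene known from sperm, was at 0.123 FPKM or below in every library.

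All 4 genes of the central apparatus had both SVZ samples above the rest. Spag6 was at 10.6 and 7.41 FPKM in SVZ samples 1 and 2, 1.45 in OB, 2.47 in DG and 1.44 in STR. Its transcript carries the accession that RefSeq now names Spag6l. Hydin, whose loss causes hydrocephalus in mice, was at 3.19 and 1.90 FPKM in SVZ samples 1 and 2, 0.649 in OB, 0.366 in DG and 0.01000 in STR. Spag16 was at 3.66 and 2.56 FPKM in SVZ samples 1 and 2, 0.149 in OB, 0 in DG and 0.154 in STR, and Spag17 at 1.89 and 2.93 FPKM in SVZ samples 1 and 2, 0.188 in OB, 0.0577 in DG and 0.254 in STR. Spag17 and Dnahc7b were the 2 motile genes with a higher value in SVZ sample 2 than in sample 1. The differences from STR were 2.01 ± 0.51 for Spag6, 1.79 ± 0.51 for Hydin, 1.82 ± 0.51 for Spag16 and 1.43 ± 0.51 for Spag17, of which the first passed the limma test (adjusted p = 0.0436).

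Tektins are filament proteins in the wall of the doublets. Tekt1 was at 19.5 and 8.14 FPKM in SVZ samples 1 and 2, 2.61 in OB, 0 in DG and 0.420 in STR. Tekt4 was at 5.59 and 2.48 FPKM in SVZ samples 1 and 2, 3.04 in OB, 1.302 in DG and 0.589 in STR. Tekt2 was at 3.05 and 1.3495 FPKM in SVZ samples 1 and 2, 1.59 in OB, 2.24 in DG and 0.768 in STR, and Tekt5 at 7.32 and 5.53 FPKM in SVZ samples 1 and 2, 4.76 in OB, 3.96 in DG and 3.58 in STR. Among tektins Tekt1 singled out the SVZ, with a difference of 3.27 ± 0.55 from STR (limma adjusted p = 0.00105). OB lay above SVZ sample 2 for Tekt4, OB and DG did for Tekt2, and Tekt5 spanned 3.58 to 7.32 FPKM over the 5 libraries. Within library sets, Tekt4 differed by 1.13 (SVZ sample 2 minus STR), 0.71 (SVZ sample 1 minus OB) and 1.52 (SVZ sample 1 minus DG). For Tekt2 these differences were 0.41, 0.64 and 0.32. Tekt3 reached 0.561 FPKM at most.

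The transport genes showed no such regional order. Among the IFT-B genes, Ift20, whose product also works at the Golgi, was at 51.8 and 35.5 FPKM in SVZ samples 1 and 2, 64.2 in OB, 56.6 in DG and 31.4 in STR. Ift57, 1 of the 4 genes with an X-box shown above, was at 33.0 and 29.9 FPKM in SVZ samples 1 and 2, 34.2 in OB, 29.4 in DG and 25.4 in STR. Ift172 was at 27.5 and 17.2 FPKM in SVZ samples 1 and 2, 29.5 in OB, 17.9 in DG and 16.02 in STR. In each of these OB was the highest library. Ift27, a small GTPase of the train that is linked to the BBSome, was at 27.3 and 9.54 FPKM in SVZ samples 1 and 2, 22.6 in OB, 8.42 in DG and 6.28 in STR. It is the transport gene that passed 1 unit against STR (1.25 ± 0.59, limma adjusted p = 0.742), but SVZ sample 2 alone gave a difference of 0.53 and the 2 SVZ samples differed 2.87-fold. Ift52 was at 21.1 and 14.2 FPKM in SVZ samples 1 and 2, 18.2 in OB, 11.5 in DG and 15.7 in STR. Ift80, at 14.4 and 13.2 FPKM in SVZ samples 1 and 2, 8.52 in OB, 8.71 in DG and 9.69 in STR, had the largest difference between the SVZ and the mean of the other regions of the 20 transport genes apart from Bbs9. Ift88, mutated in mouse polycystic kidney disease, was at 10.6 and 8.98 FPKM in SVZ samples 1 and 2, 6.15 in OB, 7.30 in DG and 7.59 in STR, with both SVZ samples above the others by a margin of 1.18-fold. Ift46, Ift74 and Ift81 ranged from 5.97 to 16.2 FPKM over all libraries.

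Ift122 and Ift140 are the IFT-A genes. Ift122 was at 18.1 and 9.32 FPKM in SVZ samples 1 and 2, 20.9 in OB, 18.3 in DG and 6.48 in STR, and Ift140 at 13.6 and 6.65 FPKM in SVZ samples 1 and 2, 13.6 in OB, 10.52 in DG and 5.30 in STR. In both genes SVZ sample 1, OB and DG were high and SVZ sample 2 and STR low, which is the split of the library sets and not of the regions. Their differences from STR were 0.91 ± 0.56 and 0.75 ± 0.55 with both SVZ samples, and 0.46 and 0.28 for SVZ sample 2 alone.

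Of the Bbs genes, Bbs4 was at 25.2 and 20.3 FPKM in SVZ samples 1 and 2, 21.8 in OB, 19.7 in DG and 18.1 in STR. Bbs2 was at 23.6 and 17.7 FPKM in SVZ samples 1 and 2, 20.5 in OB, 9.26 in DG and 16.1 in STR, and Bbs1 at 20.04 and 11.9 FPKM in SVZ samples 1 and 2, 23.7 in OB, 16.2 in DG and 8.93 in STR. These are core subunits of the BBSome, and OB lay above SVZ sample 2, which is in the other library set, for each of them. Bbs7, the other transport gene with an X-box, was at 11.4 and 10.7 FPKM in SVZ samples 1 and 2, 8.93 in OB, 7.34 in DG and 10.52 in STR. Bbs5 was at 10.8 and 12.9 FPKM in SVZ samples 1 and 2, 7.40 in OB, 7.12 in DG and 13.1 in STR. Bbs9 was at 11.3 and 7.69 FPKM in SVZ samples 1 and 2, 4.73 in OB, 4.07 in DG and 6.44 in STR, with both SVZ samples on top by a margin of 1.19-fold. Bbs9 and Bbs2 differed from DG by 1.02 ± 0.51 and 1.07 ± 0.52, and neither passed the limma test (adjusted p = 0.419 and 0.399). Bbs10 and Bbs12, chaperonin-like proteins that assemble the BBSome, lay between 1.55 and 4.20 FPKM in all libraries.

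The 7 other Spag genes carry the family name and have mixed roles. Spag8 was at 11.3 and 3.59 FPKM in SVZ samples 1 and 2, 1.51 in OB, 0.549 in DG and 0.437 in STR, a pattern like that of the motile genes, and its difference from STR was 2.38 ± 0.56 (limma adjusted p = 0.0226). Spag5, a mitotic spindle protein gene, was at 5.19 and 2.55 FPKM in SVZ samples 1 and 2, 1.59 in OB, 5.23 in DG and 0.687 in STR, so DG matched SVZ sample 1. Spag4, a nuclear envelope protein gene, was at 2.15 and 0.694 FPKM in SVZ samples 1 and 2, 1.88 in OB, 0.452 in DG and 0.548 in STR. Spag9, a kinase scaffold gene, was at 77.1 and 86.3 FPKM in SVZ samples 1 and 2, 83.9 in OB, 64.5 in DG and 92.6 in STR, and Spag7 was at 48.3 and 38.4 FPKM in SVZ samples 1 and 2, 48.6 in OB, 36.6 in DG and 28.5 in STR. Spag9 and Spag7 were the most abundant of these 7 genes in every library and differed from STR by -0.18 ± 0.62 and 0.58 ± 0.58.

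The SVZ replicates did not agree in level. Motile genes were higher in sample 1 for 35 of 37, with a median log2 difference of 0.67, and transport genes for 17 of 20, with a median of 0.35, beside 0.34 for all coding genes at 1 FPKM in either SVZ sample. Median ratio scaling moved the medians to 0.36 for motile and 0.01 for transport genes. Across genes, the difference between the SVZ samples went with the GC content of the transcript, with a Spearman rho of 0.730 over 13144 coding genes, 0.866 over the 20 transport genes and 0.331 over the 35 motile genes with a GC value. Genes share libraries and are not replicates, so these are descriptions. Median GC was 51.0% for motile, 47.4% for transport and 50.6% for all coding genes, and its part in the differences between regions was not tested.

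Outside the SVZ the motile genes were lowest in the striatum: STR was the lowest of the 5 libraries for 27 of 37, OB exceeded STR for 34 and DG exceeded STR for 27. Over all coding genes at 1 FPKM in any library these shares were 34.3%, 71.3% and 61.5%. By 1 unit or more, OB was higher than STR for 11 motile and 5 transport genes and lower for 0. A difference of 1 unit needs 1 FPKM in either library, which 20 of the 37 motile genes reached. Of all coding genes that reached it, 30.7% were higher and 6.71% lower. DG was higher than STR for 8 of the 17 motile genes at 1 FPKM in either and for 1 transport gene, and lower for 0. The shares of all coding genes were 17.6% and 8.36%. OB was higher than DG for 6 motile genes and lower for 4, of 24 at 1 FPKM in either. It was higher for 2 transport genes and lower for 0, and the shares of all coding genes were 14.4% and 5.31%. Set against the all-gene medians, the motile medians were 0.05 for OB minus STR, 0.20 for DG minus STR and -0.15 for OB minus DG, and the transport medians -0.24, -0.09 and -0.06.

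These contrasts set single samples against each other, and in those with STR the library set differs as well, since OB and DG are in the other set. Median ratio scaling took the share of higher genes among all coding genes past 1 unit from 82.1% to 50.3% for OB minus STR, from 67.8% to 47.1% for DG minus STR and from 73.1% to 57.4% for OB minus DG. When each region was first set against the SVZ sample of its own set, the motile median went from 0.58 to -0.02 for OB minus STR and from 0.46 to -0.18 for DG minus STR. The 4 motile genes lower in OB than in DG were Ccdc153, Tmem212, Fam183b and Dnahc9, and the 6 higher were Dnahc11, Tekt1, Dynlrb2, Lrrc23, Dnahc7b and Foxj1. Of these 10, Dnahc11 alone passed the limma test at adjusted p under 0.05. Tekt1 and Dynlrb2 are among the 5 motile genes listed at 0 in DG.

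Other genes of motile cilia, 39 found in the table and not in the families above, had a pattern like that of the motile members. This list too was chosen with earlier results of these data known. By 1 unit or more 33 were higher in the SVZ than in STR, 32 than in OB and 30 than in DG, with 0 lower, and both SVZ samples were above the other 3 libraries for 35. The shares of all coding genes were 7.13%, 7.22% and 10.7% higher, and 10.6% with both SVZ samples above the rest. Enkur, a gene of the axoneme, was at 17.8 and 17.4 FPKM in SVZ samples 1 and 2, 2.00 in OB, 2.05 in DG and 0.305 in STR. Wdr16 was at 13.1 and 5.65 FPKM in SVZ samples 1 and 2, 0.154 in OB, 0.530 in DG and 0 in STR, and Capsl at 15.2 and 10.1 FPKM in SVZ samples 1 and 2, 1.32 in OB, 1.09 in DG and 0 in STR. Gas8, a gene of the dynein regulatory complex, had the smallest difference in the list between the SVZ and the mean of the other regions, at 24.8 and 13.8 FPKM in SVZ samples 1 and 2, 27.9 in OB, 19.3 in DG and 8.06 in STR, and OB was its highest library. Nme7 was the lowest of the list against STR, at 23.7 and 62.3 FPKM in SVZ samples 1 and 2, 23.0 in OB, 24.8 in DG and 57.4 in STR. By limma 15, 14 and 19 of the 39 passed an adjusted p of 0.05 against STR, OB and DG in the fit of genes at 1 FPKM or more.

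Other transport genes, 26 in number, had both SVZ samples above the other 3 libraries for 9, beside 4 of the 20 transport members and 10.6% of all coding genes. By size they differed little, with 2 higher by 1 unit in the SVZ than in STR, 1 than in OB and 1 than in DG, 0 lower, and 0 passing the limma test at adjusted p under 0.05 (0, 1 and 0 at unadjusted p under 0.05). Kif17, a kinesin of cilia and dendrites, was at 27.6 and 17.3 FPKM in SVZ samples 1 and 2, 4.10 in OB, 11.4 in DG and 15.8 in STR. Dync2li1, a light intermediate chain gene of the dynein that drives IFT-A trains, was at 23.6 and 20.1 FPKM in SVZ samples 1 and 2, 14.5 in OB, 9.52 in DG and 11.3 in STR, and Arl13b, a ciliary membrane GTPase gene, at 6.32 and 6.11 FPKM in SVZ samples 1 and 2, 3.61 in OB, 3.37 in DG and 4.33 in STR. Kif3b, a subunit gene of the kinesin that drives IFT-B trains, had the lowest SVZ level relative to the mean of the other regions, at 19.5 and 19.0 FPKM in SVZ samples 1 and 2, 26.8 in OB, 23.5 in DG and 17.6 in STR. Among 16 transition zone genes, which gate the base of any cilium, 2, 0 and 1 were higher by 1 unit and 0, 2 and 0 lower. For both lists the shares of all coding genes were 7.13%, 7.22% and 10.7% higher, and 1.15%, 14.9% and 8.07% lower. B9d1 was at 26.8 and 13.3 FPKM in SVZ samples 1 and 2, 17.2 in OB, 12.8 in DG and 7.22 in STR, Mks1 at 5.47 and 3.40 FPKM in SVZ samples 1 and 2, 3.10 in OB, 2.20 in DG and 1.67 in STR and Tmem67 at 8.63 and 7.69 FPKM in SVZ samples 1 and 2, 4.56 in OB, 3.07 in DG and 5.22 in STR, while Tctn1, the lowest in the SVZ relative to the mean of the other regions, was at 11.9 and 5.24 FPKM in SVZ samples 1 and 2, 17.5 in OB, 9.09 in DG and 6.00 in STR.

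Cytoplasmic dynein is the motor of transport outside cilia. Of its 9 genes listed here, 0 were higher by 1 unit in the SVZ than in any region. Of all coding genes, 7.13%, 7.22% and 10.7% were higher than in STR, OB and DG. A count of 0 among 9 genes lies near those shares. Dynlrb2 was counted with the motile genes and not here. Dynlrb1, the general relative of Dynlrb2, was at 257 and 144 FPKM in SVZ samples 1 and 2, 326 in OB, 233 in DG and 143 in STR, a span of 143 to 326 FPKM where Dynlrb2 ran from 0 to 40.0. Dynll2 was at 457 and 492 FPKM in SVZ samples 1 and 2, 363 in OB, 305 in DG and 525 in STR, Dync1li2 at 98.4 and 103 FPKM in SVZ samples 1 and 2, 85.0 in OB, 71.0 in DG and 101 in STR and Dync1i2 at 74.8 and 77.0 FPKM in SVZ samples 1 and 2, 57.7 in OB, 82.3 in DG and 62.6 in STR. Dync1i1, an intermediate chain gene, was the exception in the other direction, at 28.8 and 19.2 FPKM in SVZ samples 1 and 2, 207 in OB, 51.1 in DG and 22.1 in STR, with OB far above the rest.

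Regulators of ciliogenesis were mixed, with 3, 2 and 3 of 13 higher by 1 unit in the SVZ than in STR, OB and DG, and 0, 1 and 1 lower. The shares of all coding genes were 7.13%, 7.22% and 10.7% higher, and 1.15%, 14.9% and 8.07% lower. Both SVZ samples lay above OB, DG and STR for 5 of the 13, against 10.6% of all coding genes. Myb, a factor early in the multiciliated program, was at 4.91 and 3.35 FPKM in SVZ samples 1 and 2, 0.153 in OB, 0.193 in DG and 0.317 in STR. Gmnn, which encodes geminin, was at 7.49 and 7.35 FPKM in SVZ samples 1 and 2, 3.84 in OB, 0.535 in DG and 4.47 in STR. Among the factors that bind the X-box, Rfx2 was at 9.15 and 2.23 FPKM in SVZ samples 1 and 2, 3.11 in OB, 1.82 in DG and 0.995 in STR, Rfx3 at 14.4 and 13.8 FPKM in SVZ samples 1 and 2, 5.61 in OB, 42.3 in DG and 8.33 in STR and Rfx5, a regulator of MHC class II genes, at 5.68 and 5.10 FPKM in SVZ samples 1 and 2, 13.3 in OB, 6.9997 in DG and 5.61 in STR. Rfx4 was at 14.5 and 9.63 FPKM in SVZ samples 1 and 2, 6.53 in OB, 6.35 in DG and 8.43 in STR. Both SVZ samples lay above the other libraries for Rfx4, while Rfx3 was highest in DG and Rfx5 in OB.

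Markers of other cells differed between the SVZ and the other regions in part. As background, 7.13%, 7.22% and 10.7% of all coding genes were higher by 1 unit in the SVZ than in STR, OB and DG. The shares lower were 1.15%, 14.9% and 8.07%. Of 12 choroid plexus markers, 3 were higher by 1 unit in the SVZ than in STR (Folr1, Otx2 and Ttr) and 0 lower, 3 higher and 2 lower than in OB, and 4 higher and 1 lower than in DG. Their summed level was 95.4 and 105 FPKM in the SVZ samples, 109 in OB, 49.8 in DG and 98.1 in STR. Enpp2, which is also an oligodendrocyte gene, was the largest term of the sum in each library, and Aqp1 held 50.7 FPKM in OB. Clic6 was at 10.2 and 9.74 FPKM in SVZ samples 1 and 2, 0.942 in OB, 0.528 in DG and 5.08 in STR. Folr1 was at 5.19 and 2.26 FPKM in SVZ samples 1 and 2, 0.293 in OB, 0.374 in DG and 0.220 in STR. Both SVZ samples lay above the other libraries for 5 of the 12 markers, beside 10.6% of all coding genes. Of these, Kcne2 and F5 stayed under 1 FPKM in every library. Ttr, the defining marker, was at 15.1 and 18.2 FPKM in SVZ samples 1 and 2, 0.950 in OB, 17.6 in DG and 6.37 in STR, and Aqp1, Cldn2 and Kcne2 were listed at 0 in DG. Cycling cell markers were higher by 1 unit in the SVZ for 10 of 10 against STR, 9 against OB and 8 against DG, and neuroblast markers for 6, 1 and 5 of 8, while 5 of the 8 were lower in the SVZ than in OB. Of 6 oligodendrocyte markers, 0 were higher by 1 unit than in STR, 3 than in OB and 6 than in DG, with 0 lower, and their summed level was 3023 and 2447 FPKM in the SVZ samples, 1433 in OB, 816 in DG and 2778 in STR. The part of these cells in the levels of the ciliary genes was not tested.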

How the data were processed

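The deposited expression table gives FPKM values that the authors computed per transcript for 5 libraries (2 SVZ samples, 1 each of OB, DG and STR), and all 5 columns of values were matched to samples by name (0 not matched). Per the submitters' processing notes CASAVA, TopHat 1.2.0, Cufflinks 1.0.0 and the mm9 build were used, with no role or order given. Strand and single or paired reads per library are not given in the sources used here. FPKM carries no counts: 27.4% to 38.4% of low values lay within 0.1 step of a whole multiple of the best step, so read depth is unknown. The deposited lncRNA structures were not used.

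FPKM was summed per symbol. In R 4.3.3, limma 3.58.1 with a trended empirical Bayes prior was fitted to log2(FPKM + 1), a pseudocount of 1, over coding genes that reached 1 FPKM in a library of either region, with region as the group, in 6 comparisons. Benjamini-Hochberg adjustment covered all genes tested. A run on simulated data, with the same noise in every library, checked the size of the differences and not the p-values. It cannot show whether the calls at adjusted p hold. Values are named for up to 5 genes per role class by highest SVZ mean, plus those with the largest and smallest SVZ difference; of each list outside, the 3 largest and the smallest, with Rfx2, Rfx3, Dynlrb1 and Adcy3. Ift88, the genes under 1 FPKM and the choroid plexus genes were named after their values were seen. The members, classes and lists were chosen with earlier results of these data known. Of the list symbols, 6 were not matched. The labels call the SVZ samples biological replicates.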

Additional observations from a re-analysis of the deposited data

How the results depend on the processing

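The larger differences of motile genes between the SVZ and other regions kept their direction in every alternative run, and 0 single gene differences of 1 unit or more reversed. Over all 64 genes, 1104 results stayed on their side of the threshold, 36 moved past it and 12 fell short of it. The 1104 include 192 from the run without the filter, which repeat the main values. They also include smaller differences that changed sign: for Rsph9 against OB, -0.33 became 0.34 with SVZ sample 1 alone. With a pseudocount of 0.1 the motile medians were 3.64 (STR), 2.23 (OB) and 2.70 (DG), with 2 motile genes lower than in OB; for OB minus STR the median was 1.09 with 22 genes higher, for DG minus STR 0.92 with 18 higher and 5 lower, and for OB minus DG 12 were higher and 7 lower. Motile calls at adjusted limma p under 0.05 were then 2 and 3 for OB and DG minus STR, and 3 higher and 1 lower for OB minus DG. Fitting limma without the filter on low values, or without it but with adjustment over genes at 1 FPKM (chosen after seeing the data), left 0 motile calls in every comparison. limma without trend gave 4 motile calls against OB and 9 against DG, and 0 for OB minus STR and OB minus DG. Median ratio scaling gave 23 motile calls against OB, 3 and 5 for OB and DG minus STR, and 4 higher and 2 lower for OB minus DG. It moved the transport medians to 0.11 (SVZ minus STR), 0.28 (SVZ minus OB), -0.26 (OB minus STR), -0.12 (DG minus STR), -0.055 (OB minus DG) and 0.0068 between the SVZ samples. Transport genes past 1 unit became 0 (SVZ minus STR), 1 (SVZ minus OB), 2 higher and 1 lower (OB minus STR), 2 lower (DG minus STR) and 1 higher (OB minus DG). Taking the highest transcript of a gene gave 1 transport gene against DG and 1 motile call for DG minus STR. Bridging through the SVZ sample of the same set gave motile medians of -0.016 and -0.18 for OB and DG minus STR (3 higher and 1 lower, 2 higher and 4 lower) and transport medians of -0.014 and -0.20 (0 higher, and 0 higher with 3 lower). Leaving out either SVZ sample gave 0 to 4 transport genes higher than in STR, 0 to 1 higher and 0 to 2 lower than in OB, 0 to 3 higher than in DG, 0 to 2 motile genes lower than in OB, and 5 to 12 transport genes with the SVZ above all others; without sample 1 Ift27 and Dnahc2 (against STR), Dnaic1, Hydin and Spag8 (OB) and Bbs2, Bbs9, Dnahc1 and Tekt4 (DG) fell under 1 unit. The cause was not tested. No paired analysis was possible because the SVZ alone has more than 1 sample. FPKM values without counts leave the precision of low genes unknown.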

Other observations

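The transcripts of Spag9 were divided by library set and not by region. Its 6912-base transcript made up 19.3%, 19.8% and 20.8% of the gene's level for SVZ sample 1, OB and DG, and 0.0471% and 0.0924% in SVZ sample 2 and STR. The 6900-base transcript made up 31.4%, 34.3% and 22.6% in the first 3 libraries and 57.9% and 64.7% in the other 2. The summed level of Spag9 ran from 64.5 to 92.6 FPKM. Fam183b had a like split: its 502-base transcript had 0.582 FPKM for SVZ sample 1, 0.0786 for OB and 0 for DG, but 4.65 for SVZ sample 2 and 0.221 for STR, where the 562-base transcript had 12.04 and 0 FPKM.

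Genes of the primary cilium of neurons did not share an order over the regions. Of 6 such genes, 0, 2 and 1 were higher by 1 unit in the SVZ than in STR, OB and DG, and 0, 2 and 1 lower. Over all coding genes 7.13%, 7.22% and 10.7% were higher, and 1.15%, 14.9% and 8.07% lower. The melanin-concentrating hormone receptor gene Mchr1 had 38.6 and 23.4 FPKM in SVZ samples 1 and 2, with 23.0 in STR, 7.36 in OB and 4.95 in DG. The somatostatin receptor gene Sstr3 was at 24.5 FPKM in OB and 12.6 in DG, with 0.162 and 0.326 for the SVZ and 0.850 for STR. The serotonin receptor gene Htr6 had 10.47 and 3.49 FPKM in SVZ samples 1 and 2, 1.87 in OB, 3.22 in DG and 2.90 in STR. The adenylyl cyclase gene Adcy3, a general marker of neuronal cilia, had 28.1 and 18.3 FPKM in SVZ samples 1 and 2, 21.0 in OB, 15.4 in DG and 23.0 in STR.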
